A study of Homo sapiens with 28 samples.

Results

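Peaks of N6-methyladenosine (m6A) on caRNA, the chromatin-bound fraction of nuclear RNA, were examined in 10 genes that control or carry out granulocyte development. They were 5 transcription factor genes, SPI1, CEBPA, CEBPB, CEBPE and GFI1, and 5 genes of granule proteins, MPO, ELANE, AZU1, PRTN3 and CTSG. The genes were chosen by name, of 20033 protein-coding genes in the GENCODE annotation of hg38. A peak belonged to a gene when its summit lay on the strand of the gene, from 1000 bases upstream of the gene start to the gene end. A gene is called listed in a library when the library holds at least 1 such peak.

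The study asks whether RBFOX2, an RNA-binding protein, guides m6A on caRNA, and it used methylated RNA immunoprecipitation sequencing (MeRIP-seq), in which an m6A antibody enriches methylated RNA fragments. The 28 samples were 14 immunoprecipitated (IP) libraries, each with 1 peak list, and 14 input libraries, which are not analysed here. NB4, an acute promyelocytic leukaemia line, gave 2 groups of 3 libraries, Control and RBFOX2 KD. K562, a chronic myelogenous leukaemia line, gave K562 WT, K562 Control and K562 RBFOX2 KD (n = 2 each), and HepG2, a hepatoma line, gave HepG2 WT (n = 2). Knockdown (KD) cells stably carried a lentiviral short hairpin RNA against RBFOX2 and Control cells a non-targeting one, both under puromycin selection, whereas WT cells carried neither. The study made more than 1 hairpin, and which one served in these libraries was not stated. The study's methods call the replicates biological, the labels do not say whether they were separate cultures, and p-values measure only the spread between these libraries.

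As background, PU.1, the product of SPI1, and C/EBPα, the product of CEBPA, start the myeloid programme in progenitors. C/EBPε and GFI1 act later, at the promyelocyte stage, where the primary granules form. These granules hold myeloperoxidase (MPO), the serine proteases neutrophil elastase (ELANE), proteinase 3 (PRTN3) and cathepsin G (CTSG), and azurocidin (AZU1), a related protein without protease activity. AZU1, PRTN3 and ELANE lie side by side on chromosome 19.

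The lists held 22700 to 44088 peaks on chromosomes 1 to 22, X and Y. Depth was recovered from the lists as effective reads, given in megareads (M). It was 10.8 to 15.6 M in NB4 Control, 16.8 to 21.9 M in NB4 KD, 24.9 to 25.6 M in K562 WT, 12.6 to 19.5 M in K562 Control and KD, and 26.9 to 30.04 M in HepG2. By effective reads, NB4 KD was thus deeper than NB4 Control, and K562 WT was deeper than the other K562 groups. In NB4 Control 3 and both HepG2 libraries most recovered pileups were not whole numbers. Their reads were assumed to be rescaled, so their own depth may differ from these values. Cell type markers were compared with the labels. Of 12 erythroid and megakaryocytic marker genes, 10 were listed in every K562 library and 8 in no NB4 library. KLF1, TAL1, NFE2 and EPOR had the highest ranks in K562. Of these, NFE2 and EPOR were also listed in all 6 NB4 libraries, EPOR in both HepG2 libraries and NFE2 in 1. The mean percentile of NFE2 within the lists was 97.9 in NB4 and 99.6 in K562 Control and KD. Of 12 hepatocyte genes, 12 were listed in no NB4 library, but only 6 were listed in both HepG2 libraries (among them TF, HNF4A and FGA), and the defining gene ALB was in none. Of 10 myeloid markers, 7 were listed in every NB4 library, led by AZU1, CSF3R, CEBPE and PRTN3, 5 in no K562 library and 9 in no HepG2 library. CSF3R was also listed in 2 K562 and 2 HepG2 libraries, AZU1 in 2 K562 libraries, and SPI1 and CD33 in all 6 K562 libraries. MS4A3 was listed in no NB4 library but in 1 K562 library, and ELANE in no library. All of these markers but CSF3R, CD33 and MS4A3 are among the genes examined here, so they are no separate check of the labels. A gene can thus be unlisted in the cells it defines.

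Peaks of these genes belonged mostly to NB4. NB4 libraries held 23 to 31 of them, K562 WT 8 and 6, the other K562 libraries 2 to 4, and HepG2 4 and 3. Of the 10 genes, 8 were listed in all 6 NB4 libraries, where 36.4% of all protein-coding genes were. CTSG was listed in 4 NB4 libraries, and ELANE in none of the 14. CEBPE, MPO and PRTN3, 3 of the 10, were listed in every NB4 library and in no other. Of the 12628 genes listed in at least 1 library, 3.03% showed that pattern. In these bulk libraries, fewer cells with an RNA, less RNA per cell and less methylation per RNA cannot be told apart.

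**Figure D1:**
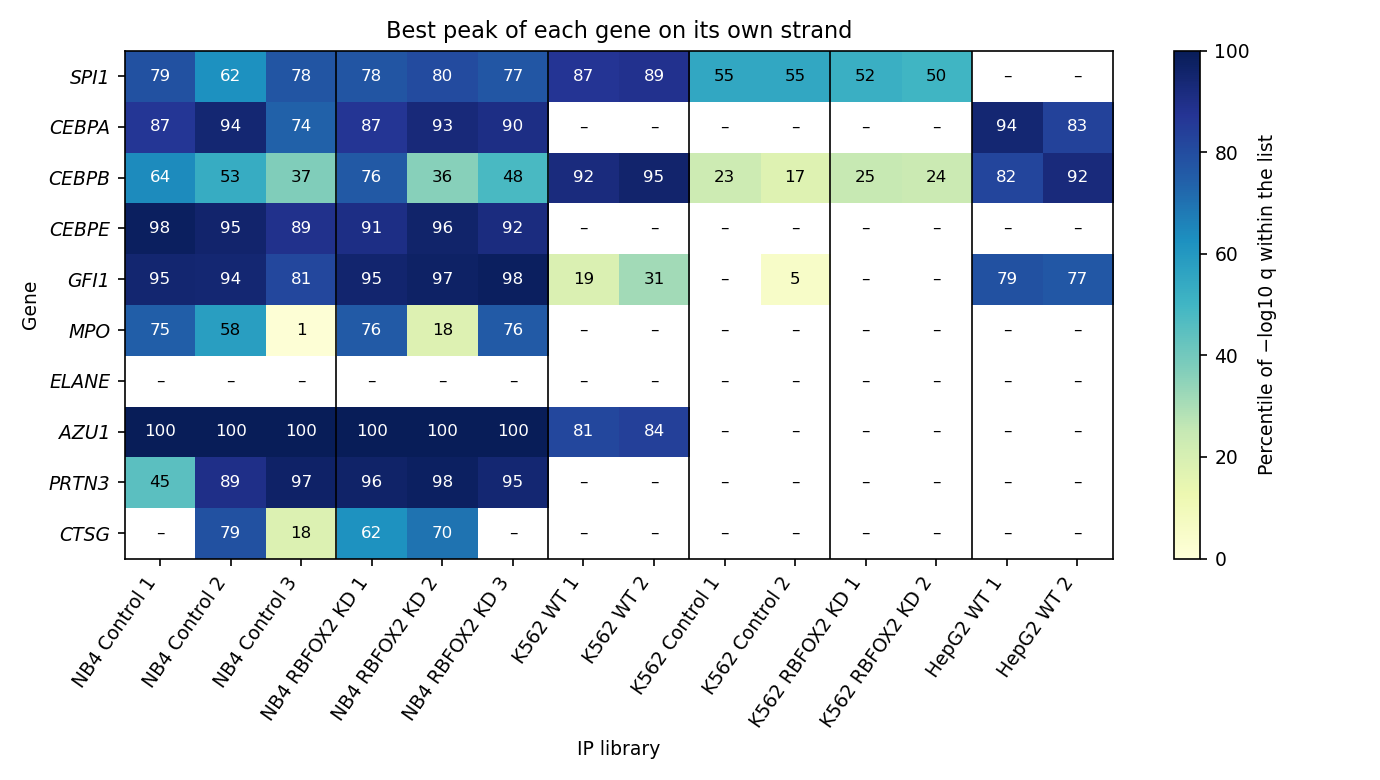
Percentile of the strongest sense-strand peak of each gene (rows) in each IP library (columns), from 0 to 100 within that library's list, with a dash where the gene was not listed. AZU1 sits at 100 after rounding in all 6 NB4 libraries, CEBPE, MPO and PRTN3 have values in NB4 alone, and ELANE has none.

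The 10 genes held 32 separate sense regions once overlapping peaks of all libraries were merged. All 32 were listed in NB4, 24 in NB4 alone, 13 in every NB4 library, and 8 in every NB4 library and no other. The shares of all merged regions with these patterns were not counted, so these counts are a description. By the median summit, 14 of the 32 lay in introns, 8 in coding exons, 3 in 5′ UTR exons, 4 in 3′ UTR exons and 3 upstream of the canonical transcript. Peaks thus covered unspliced as well as mature sequence.

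NB4 was compared with K562 by the rank of a gene's strongest peak, given as the percentile of its -log10 q within the list, with 0 for an unlisted gene. Strength is reported this way because lists differ in depth and length. Control and KD libraries of both lines entered an exact permutation test, two-sided and stratified by condition, with Benjamini-Hochberg adjustment over 11603 genes. Its smallest p was 0.01, from 100 arrangements. Over all genes tested, 19.1% were higher in NB4 and 24.3% lower. Of the 10 genes, 8 passed an adjusted p of 0.05 and were higher in NB4. The count is a description, since CEBPA, CEBPE, MPO, AZU1 and PRTN3 had no peak in the K562 libraries compared, entered the test through NB4 and could only be higher. With all protein-coding genes tested, listed or not, 6 of the 10 passed, and CEBPB and MPO did not (adjusted p = 0.0795 for each, exact permutation test). ELANE could not be tested, and CTSG did not pass. The number of libraries limits this test: without any 1 of the 4 K562 libraries compared no gene of the genome passed, without an NB4 Control library 6 of the 10 did, and without an NB4 KD library 4.

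SPI1 (chr11:47354860-47378547, minus strand) encodes PU.1, an ETS-family factor that activates myeloid genes. It had the most peaks of the 10 genes, with 7 in each NB4 Control library and 9, 10 and 7 in NB4 KD 1 to 3, spread over 10 regions. K562 WT 1 and 2 had 3 and 2 peaks, each other K562 library had 1, and HepG2 had none. Of the regions, 4 were in all 6 NB4 libraries and in no other line. They lay in the 5′ UTR (172 bases from the gene start), in intron 1 (795 and 1878 bases) and in intron 2 (12389 bases), with folds of 2.48 to 8.79 over the local background. The stronger intron 1 region and the intron 2 region are shown because they set NB4 apart from K562 at this gene. Capitals mark, in the first, the m6A consensus (A, G or T, then A or G, then A, then C, then A, C or T) and, in the second, AGATG, a motif (AGAUG in RNA) examined by the study for RBFOX2.
SPI1 intron 1, chr11:47376619-47376719, minus strand: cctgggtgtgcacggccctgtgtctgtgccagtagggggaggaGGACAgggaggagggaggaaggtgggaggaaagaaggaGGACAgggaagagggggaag
SPI1 intron 2, chr11:47366108-47366208, minus strand: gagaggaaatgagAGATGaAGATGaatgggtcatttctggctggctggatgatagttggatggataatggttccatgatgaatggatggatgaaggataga
The consensus was present within 75 bases of 94.6% to 98.4% of all summits, on the strand of the peak, depending on the library, and AGATG within 75 bases of 20.8% to 25.1%. A match of either is therefore common.

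The SPI1 region found in most libraries, 12 of 14, spanned the end of the coding sequence and the 3′ UTR in exon 5 (chr11:47354902-47355684). Its fold was 6.98, 3.08 and 6.0 in NB4 Control 1 to 3, and 6.93, 6.77 and 5.61 in NB4 KD 1 to 3. It was 15.1 and 15.97 in K562 WT, 8.35 and 7.97 in K562 Control, and 8.59 and 8.72 in K562 KD. By fold, then, every K562 library was above every NB4 library. By rank, the percentiles of this region ran from 56.0 to 80.4 in NB4, from 50.3 to 54.9 in K562 Control and KD, and were 87.3 and 88.6 in K562 WT. The summit fell in the coding exon in 6 libraries, among them the K562 Control and KD libraries, and in the 3′ UTR in the other 6. The strongest SPI1 peak had a percentile of 75.7 ± 6.57 in NB4 (SD, n = 6) and of 53.0 ± 2.24 in K562 Control and KD (SD, n = 4). The difference of 22.6 passed the exact permutation test (p = 0.01, adjusted p = 0.0266). By the strongest fold NB4 differed from K562 by -0.90 (adjusted p = 0.157, exact permutation test). With the K562 WT libraries added the difference in percentile was 10.99 (adjusted p = 0.277, exact permutation test). The adjusted p ran from 0.0265 to 0.277 over 11 such alternatives.

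CEBPA (chr19:33299934-33302534, minus strand), a gene of 1 exon, encodes C/EBPα, a leucine zipper factor needed for granulocyte commitment and, in liver, for metabolic genes. It was listed in every NB4 and HepG2 library and in no K562 library. Every NB4 library and HepG2 WT 1 had a peak near the gene start, with its summit at chr19:33302363 to chr19:33302365. All peaks of the gene fell in 1 merged region (chr19:33300395-33302579), which ran from the 3′ UTR over the coding sequence to just upstream of the gene start. The fold of its strongest peak was 7.92, 13.2 and 6.18 in NB4 Control 1 to 3, 7.27, 10.1 and 9.09 in NB4 KD 1 to 3, and 5.52 and 3.88 in HepG2 WT 1 and 2. Percentiles ran from 74.0 to 94.2 in NB4 and were 94.1 and 83.0 in HepG2, so NB4 and HepG2 overlapped by rank. Against K562, where the gene was unlisted and NB4 could only be higher, the difference was 87.5 (adjusted p = 0.0266, exact permutation test). NB4 Control and HepG2 differed by -3.67 in percentile (p = 0.9, exact permutation test, n = 3 and 2), which does not show that they were alike.

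CEBPB (chr20:50190830-50192668, plus strand) encodes C/EBPβ, the family member of stress and inflammatory responses. Its single exon carried 1 merged region, the only one of the 32 that was listed in all 14 libraries, with the summit in the coding sequence in 13 of them. The bases around the median summit are shown because this is the site that the lines had in common, with the consensus in capitals.
CEBPB coding exon, chr20:50191749-50191849, plus strand: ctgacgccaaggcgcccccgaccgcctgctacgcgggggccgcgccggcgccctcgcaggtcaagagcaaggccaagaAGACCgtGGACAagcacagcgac
The fold was 5.40, 5.25 and 3.66 in NB4 Control 1 to 3, and 9.15, 4.03 and 6.25 in NB4 KD 1 to 3. It was 16.5 and 18.3 in K562 WT, 5.22 and 4.32 in K562 Control, 5.24 and 5.56 in K562 KD, and 3.83 and 6.86 in HepG2 WT. Percentiles were 36.0 to 76.4 in NB4, 17.5 to 24.9 in K562 Control and KD, 91.9 and 95.4 in K562 WT, and 82.2 and 92.5 in HepG2. K562 WT thus lay above every NB4 library, and the other K562 libraries below. NB4 exceeded K562 Control and KD by 30.2 (p = 0.02, adjusted p = 0.0461, exact permutation test), and with K562 WT added the difference was 6.43 (adjusted p = 0.792). The adjusted p ran from 0.0459 to 0.792 over 11 alternatives, and from 0.0608 to 0.106 without any single library. K562 WT carried no hairpin and was deeper than K562 Control and KD, and the part of either was not tested.

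CEBPE (chr14:23117036-23120256, minus strand) encodes C/EBPε, which drives late granulocyte maturation. It was listed in NB4 alone, with 2 or 3 peaks in each library. A region with its summits in the 3′ UTR of exon 2 (chr14:23117330-23117941) had folds of 26.6, 12.3 and 6.90 in NB4 Control 1 to 3 and of 8.53, 6.90 and 7.75 in NB4 KD 1 to 3. Its percentiles were 87.7 to 98.4. A region with its median summit 47 bases upstream of the canonical transcript start, inside the gene as annotated, had folds of 5.59 to 13.1 and percentiles of 84.2 to 95.8. By fold, Control 1 was highest at both. The upstream region is shown because it lies just before the canonical start, and the consensus is in capitals.
CEBPE upstream of the canonical start, chr14:23119252-23119352, minus strand: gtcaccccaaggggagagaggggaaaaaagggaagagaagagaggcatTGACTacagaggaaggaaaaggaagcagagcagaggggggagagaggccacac
Within 75 bases of this summit 73.5% of bases were A or G, where the median over all summit windows was 55% to 58.3%. The strongest CEBPE peak had a percentile of 93.4 ± 3.66 (SD, n = 6) in NB4 and the gene was unlisted in K562 (adjusted p = 0.0266, exact permutation test). NB4 could thus only be higher.

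GFI1 (chr1:92473043-92486925, minus strand) encodes a zinc finger repressor that restrains monocytic genes in granulocyte precursors. A region in the 3′ UTR of exon 7 (chr1:92474946-92476202) was found in 11 of 14 libraries. Its fold was 6.34, 5.47 and 3.64 in NB4 Control 1 to 3, and 5.88, 7.70 and 10.3 in NB4 KD 1 to 3. It was 4.07 and 4.84 in K562 WT, 3.49 in K562 Control 2, and 6.13 and 6.83 in HepG2 WT. K562 Control 1 and both K562 KD libraries had no peak there. Percentiles were 81.3 to 98.4 in NB4, 76.6 and 78.6 in HepG2, 18.7 and 31.4 in K562 WT and 5.29 in K562 Control 2. NB4 was thus above the other lines in every library by rank, but not by fold. The difference from K562 Control and KD was 92.1 (p = 0.01, adjusted p = 0.0266, exact permutation test). That from HepG2, over NB4 Control, was 12.4 in percentile (p = 0.2) and -0.59 in the highest fold of the gene (p = 0.9, exact permutation tests, n = 3 and 2). The highest fold was that of an intron 1 peak in NB4 Control 2 (7.13) and NB4 Control 3 (4.18), not of the 3′ UTR region. GFI1 also had intron 1 regions found in NB4 alone, at 1908 bases from the gene start in 6 NB4 libraries (fold 3.95 to 9.34) and at 1077 bases in 5. The first is shown because it marks intron sequence in every NB4 library, with the consensus in capitals. One of its matches is GGACT, which occurred within 75 bases of 22% to 29.1% of all summits.
GFI1 intron 1, chr1:92484967-92485067, minus strand: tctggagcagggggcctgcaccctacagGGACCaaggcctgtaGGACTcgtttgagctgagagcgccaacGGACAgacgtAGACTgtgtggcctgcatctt

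AZU1 (chr19:825097-832018, plus strand) encodes azurocidin, an antimicrobial protein of primary granules. Its intron 2 held the top-ranked peak of 5 of the 6 NB4 lists, and the peak ranked 2 in NB4 KD 2. The sequence around the median summit is shown because it carries this peak, and AGATG is in capitals.
AZU1 intron 2, chr19:828670-828968, plus strand: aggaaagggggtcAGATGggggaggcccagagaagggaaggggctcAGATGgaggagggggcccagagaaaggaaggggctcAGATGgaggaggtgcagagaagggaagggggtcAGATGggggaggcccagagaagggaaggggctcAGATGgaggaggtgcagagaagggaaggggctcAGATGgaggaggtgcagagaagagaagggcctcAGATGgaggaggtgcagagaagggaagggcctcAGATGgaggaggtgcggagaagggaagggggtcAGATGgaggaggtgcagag
The intron spans 1175 bases (chr19:828387-829561) and held 25 copies of AGATG, of which 21 of 24 neighbouring pairs were 33 bases apart. It is thus a tandem array. Within 75 bases of the summit there were 4 copies in NB4 Control and 5 in NB4 KD and K562 WT, with summits from chr19:828801 to chr19:828830. At least 4 copies occurred in 0.258% to 0.436% of summit windows in NB4, 0.177% and 0.184% in K562 WT, 0.0518% to 0.0702% in K562 Control and KD, and 0.321% and 0.344% in HepG2. The cut of 4 was taken from this peak after it was seen, so these shares are a description. Among the 100 strongest peaks of each NB4 list, this one included, 1 to 4 had at least 4 copies. The consensus was absent within 75 bases of this summit in all 8 libraries that had it, as it was in 4.27% to 5.42% of all NB4 windows. The merged region of 1471 bases held 6 matches of the consensus, 2 of them GGACT.

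The fold of the AZU1 intron 2 peak was 68.2, 58.5 and 31.3 in NB4 Control 1 to 3 and 45.4, 44.4 and 49.98 in NB4 KD 1 to 3. It was 12.3 and 13.3 in K562 WT, and no peak was listed in K562 Control, K562 KD or HepG2. Pileups of 530 to 629 reads stood over local means of 6.99 to 17.0 in NB4, against 196 and 207 reads in K562 WT. All NB4 libraries were above both K562 WT libraries, and NB4 Control and KD overlapped. Ranks in K562 WT were 8217 and 7003, percentiles of 81.3 and 83.8. Windows rich in AGATG were also more frequent in K562 WT than in K562 Control and KD, as given above, and the part of depth or preparation in this difference was not tested. A further region over intron 4 and the last exon was listed in 5 NB4 libraries and both K562 WT libraries (fold 2.55 to 5.56).

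The reference holds the AZU1 and PRTN3 windows again, at 100% identity over 7922 and 8177 bases, on an alternate contig of chromosome 19, and the ELANE window at 99.03% identity. Reads of these genes cannot be assigned to 1 copy, so the values of AZU1 and PRTN3 on chromosome 19 may hold part of their reads. The lists also had AZU1 peaks on the contig in 6 NB4 and 2 K562 libraries and PRTN3 peaks in 6 NB4 libraries, but no ELANE peak. Counting them changed no call of a comparison.

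**Figure D2:**
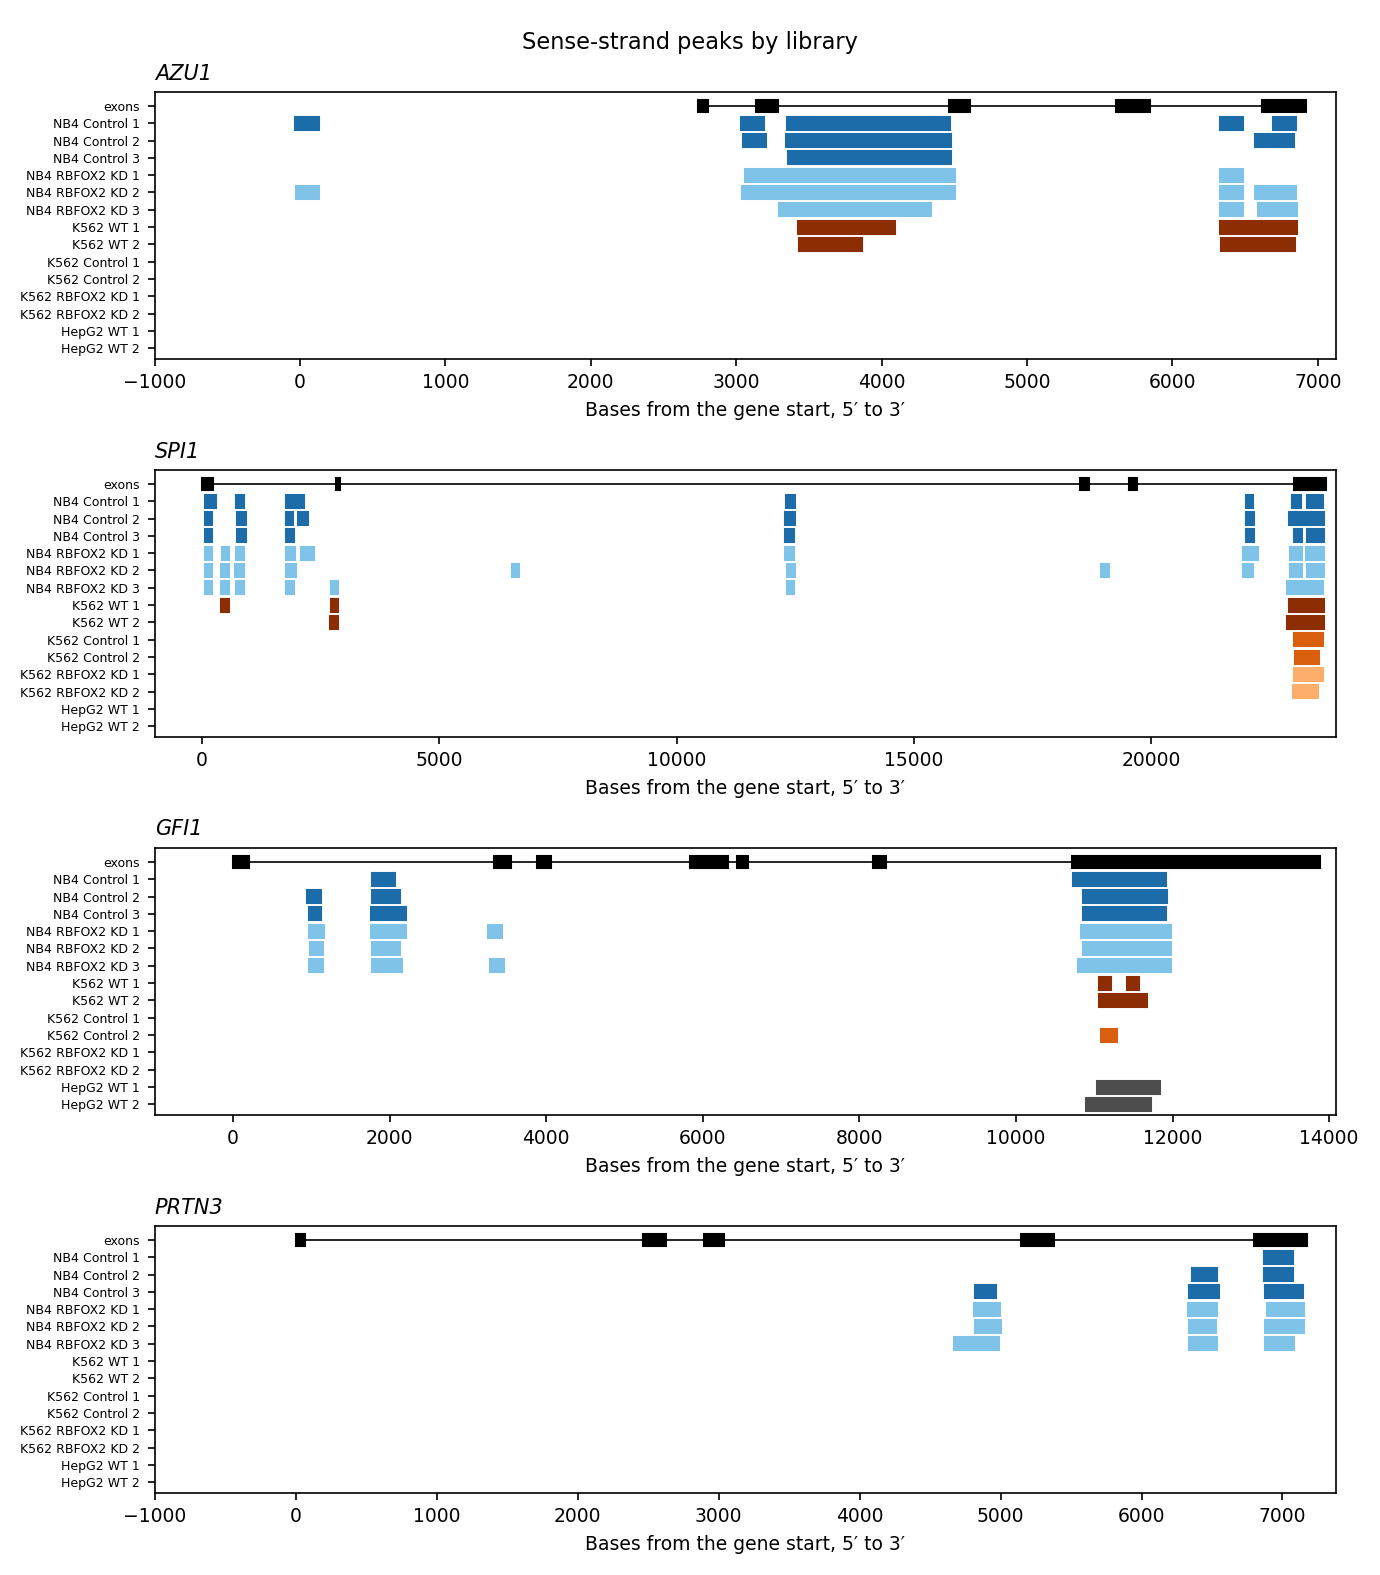
Sense-strand peaks of AZU1, SPI1, GFI1 and PRTN3 drawn by library (rows) against the distance from the gene start in bases, 5′ to 3′, over the exons of the canonical transcript (black). The wide AZU1 peak in intron 2 is in all 6 NB4 and both K562 WT libraries, SPI1 has 4 regions that are in all NB4 libraries alone, and PRTN3 has peaks in NB4 alone.

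PRTN3 (chr19:840999-848175, plus strand) encodes proteinase 3, a serine protease. It was listed in all 6 NB4 libraries and nowhere else. Its 3′ UTR region in exon 5 (chr19:847870-848151) had folds of 3.16, 4.96 and 2.86 in NB4 Control 1 to 3 and of 4.59, 4.76 and 5.16 in NB4 KD 1 to 3. Percentiles ran from 44.8 to 78.8. A stronger region in intron 4 was listed in 5 of the 6, all but NB4 Control 1, with folds of 5.78 to 7.498 and percentiles of 89.5 to 97.8. A region in intron 3 was listed in NB4 Control 3 and in the 3 NB4 KD libraries (fold 2.70 to 4.66). The strongest PRTN3 peak had a percentile of 86.6 ± 20.7 (SD, n = 6), with NB4 Control 1 lowest at 44.8. As the gene was unlisted in K562, NB4 could only be higher (adjusted p = 0.0266, exact permutation test). ELANE (chr19:851014-856247, plus strand), the next gene downstream, had no peak on either strand in any library.

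MPO (chr17:58269855-58280935, minus strand) encodes myeloperoxidase, the haem enzyme that makes hypochlorous acid. It was listed in NB4 alone, in 4 regions, none of them in all 6 libraries. The region in most libraries lay in the 5′ UTR, 89 bases from the gene start, with folds of 1.54 in NB4 Control 1 and 3.29, 1.58 and 3.56 in NB4 KD 1 to 3, and no peak in NB4 Control 2 and 3. The intron 6 region was listed in NB4 Control 1, NB4 Control 2 and NB4 KD 3 with folds of 2.03, 1.73 and 1.76. These folds were below the median of every NB4 list, which was 5.08 to 6.14. The local background was high at this gene: the highest local mean at a sense MPO summit was 104 to 416 reads in the 6 libraries, where the median over all peaks was 7.71 to 13.6, and at least 98.13% of peaks had a lower one. Pileups in intron 6 were 708 to 722 reads. The strongest MPO peak had percentiles of 74.8, 58.0 and 1.47 in NB4 Control 1 to 3 and of 76.0, 17.9 and 76.1 in NB4 KD 1 to 3. The mean was 50.7 ± 32.9 (SD, n = 6), and with MPO unlisted in K562 it could only be higher in NB4. The difference from K562 passed the test (p = 0.02, adjusted p = 0.0461, exact permutation test) but not without any 1 library (adjusted p = 0.0705 to 0.145). With lists of equal length the adjusted p was 0.206, and over 11 alternatives it ran from 0.00693 to 0.206.

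**Figure D3:**
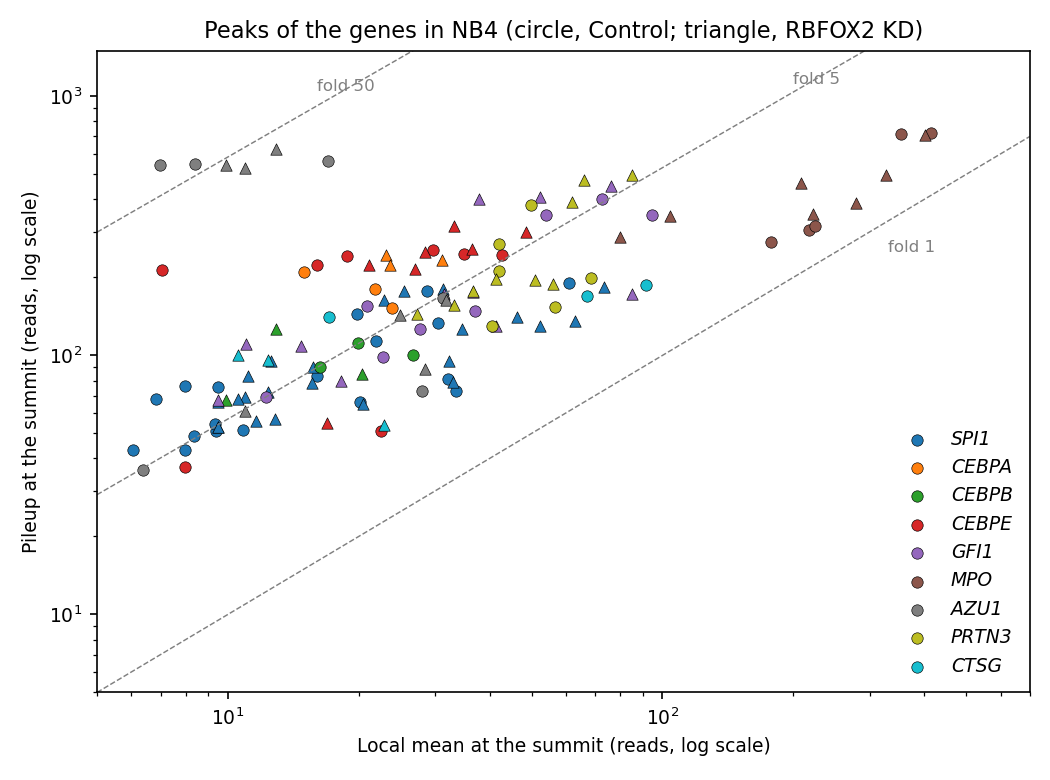
Pileup of IP reads against the local mean at the summit, both on log scales, for the strongest peak of each sense-strand region of the 9 listed genes in NB4 Control (circles) and NB4 RBFOX2 KD (triangles), with dashed lines of equal fold. AZU1 intron 2 peaks stand at 530 to 629 reads over local means of 6.99 to 17.0, and the 10 highest local means, of 178 to 416 reads, belong to MPO peaks, whose folds are 1.39 to 3.56 over all its sense regions.

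CTSG (chr14:24573518-24576250, minus strand) encodes cathepsin G, a chymotrypsin-like protease. A region at the start of exon 2 had folds of 7.84 in NB4 Control 2, 7.27 in NB4 KD 1 and 8.75 in NB4 KD 2, and a region in exon 4 had folds of 2.04 to 2.49 in NB4 Control 2, NB4 Control 3 and NB4 KD 1. NB4 Control 1 and NB4 KD 3 had neither. The percentile of the strongest peak was 38.1 ± 36.2 (SD, n = 6), and the difference from K562, where CTSG was unlisted, did not pass (p = 0.13, adjusted p = 0.198, exact permutation test).

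Against HepG2 WT, 6 of the 10 genes ranked higher in every NB4 Control library and 1, CEBPB, lower, without overlap, where 35.4% and 24.9% of 10829 genes tested did so. The higher genes were SPI1, CEBPE, GFI1, MPO, AZU1 and PRTN3. Of these, only GFI1 was listed in HepG2. The others had no peak there, entered through NB4 and could only be higher, so the count is a description. ELANE could not be tested. With 3 libraries against 2 the smallest p is 0.1, so no gene could pass. NB4 Control carried a hairpin under puromycin and HepG2 WT did not, so line and hairpin cannot be told apart in this comparison. CEBPB fell by 35.9 in percentile relative to HepG2 (p = 0.1, exact permutation test).

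The KD libraries address whether m6A at these genes depends on RBFOX2. Within NB4, Control and KD overlapped by rank at 8 of the 9 listed genes. GFI1 was the exception, at 94.6, 94.2 and 81.3 in Control 1 to 3 and 95.1, 97.1 and 98.4 in KD 1 to 3. The difference was 6.82 (p = 0.1, the smallest that 3 libraries against 3 allow, adjusted p = 0.456, exact permutation test). Over all 9954 genes tested, 15.4% were higher in every KD library and 6.59% lower, so 1 gene of 9 was not above that share. KD libraries were the deeper ones by effective reads. With lists of equal length the GFI1 groups overlapped as well. By the strongest fold in place of rank, SPI1 alone separated, and it was lower in every KD library, with a difference of -1.43 (p = 0.1, exact permutation test). By that measure 18.7% of all genes tested separated, so 1 of 9 was below the share. AZU1 fell by 0.000884 in percentile, being ranked 1 in 5 libraries and 2 in 1. The other differences were 5.59 for SPI1, 5.13 for CEBPA, 2.18 for CEBPB, -1.59 for CEBPE, 11.9 for MPO, 19.1 for PRTN3 and 11.6 for CTSG, with p of 0.3 to 1 (exact permutation tests, n = 3 and 3).

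**Figure D4:**
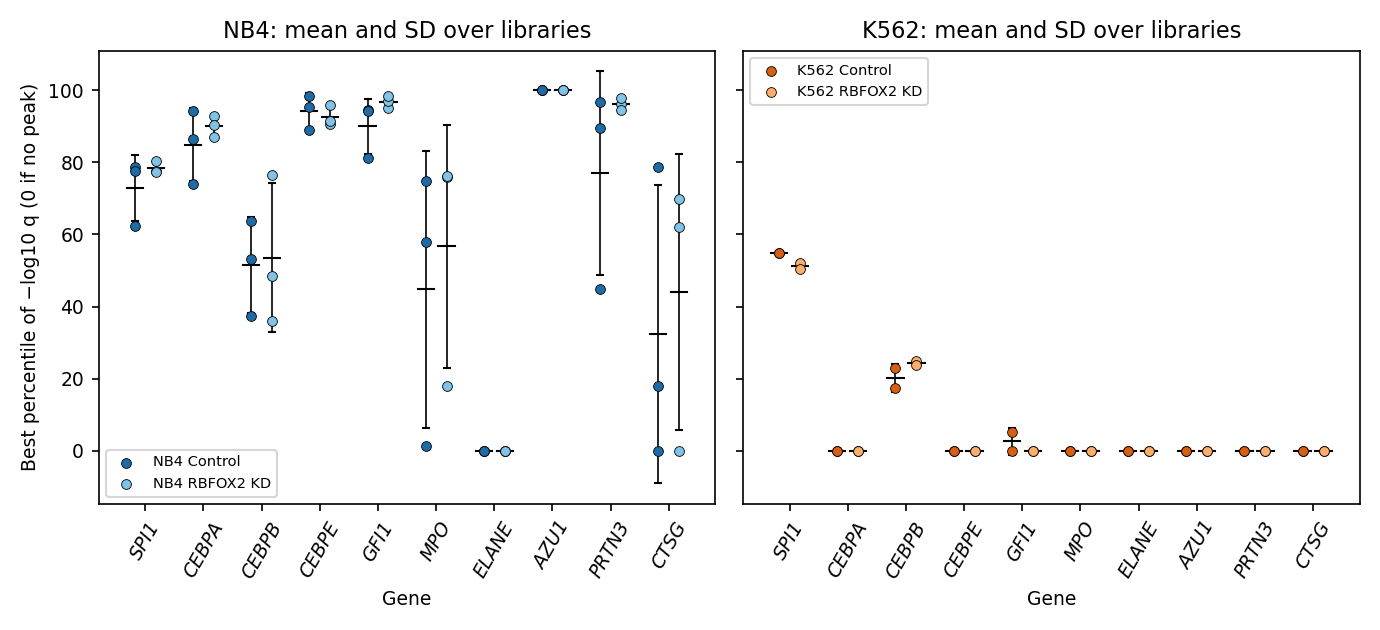
Percentile of the strongest sense-strand peak of each gene in Control and RBFOX2 KD libraries of NB4 (left, n = 3 each) and K562 (right, n = 2 each), as points with the mean and SD, and 0 for an unlisted gene. In NB4 the points of Control and KD overlap for every listed gene but GFI1, and in K562 only SPI1, CEBPB and GFI1 have points above 0.

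Among the 32 sense regions that the genes had in NB4, 1 was listed in every KD and no Control library and 0 the reverse, where 3.67% and 0.612% of 52807 merged NB4 regions were. The count of 1 is thus no higher than the share of all regions. The gained one lay in SPI1 intron 1, 470 bases from the gene start, with folds of 4.76, 5.44 and 5.85 in NB4 KD 1 to 3, and was also listed in K562 WT 1. Its bases are given, with the consensus in capitals, to show which region this was.
SPI1 intron 1, region gained in NB4 KD, chr11:47378027-47378127, minus strand: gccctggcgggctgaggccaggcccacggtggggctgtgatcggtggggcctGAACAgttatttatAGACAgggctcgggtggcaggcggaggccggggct
Its pileups were 69 to 90 reads over local means of 11.0 to 15.7. In K562, SPI1 was lower in both KD libraries (52.2 and 50.3 against 54.9 and 54.8 in Control) and CEBPB higher (24.9 and 23.8 against 23.04 and 17.5). Such separation was seen downwards in 16.3% and upwards in 11.0% of 9771 genes tested, and the smallest p that 2 against 2 libraries allow is 0.333. Of the 3 regions that the genes had in these libraries, 0 were gained and 0 lost, where 1.76% and 1.74% of 47629 merged K562 regions were.

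Antisense peaks were found in 5 regions of 4 genes. In MPO, an antisense region in intron 6 was listed in all 6 NB4 libraries, at the place of the sense region, with folds of 8.58, 6.84 and 4.65 in Control and 5.73, 6.89 and 7.80 in KD. Its pileups were 126 to 231 reads. In GFI1, an antisense region over the 3′ UTR of exon 7 was also in all 6 NB4 libraries (fold 6.51 to 11.7), beside the sense region there. No gene is annotated on the antisense strand at either place. The other GFI1 antisense region was in 3 NB4 libraries, that of AZU1 in 2, and that of CEBPB in both K562 WT libraries, where the lncRNA gene CEBPB-AS1 is annotated. Of all peaks assigned to protein-coding genes, 80.4% to 85.1% lay on the strand of the gene.

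Other myeloid genes were counted from lists drawn up with results of these data known. The counts are read beside the 19.1% of all genes tested that were higher in NB4 and the 24.3% that were lower. Of 18 receptor and surface genes, 13 were tested and 12 were higher in NB4 than in K562 (Control and KD) with 0 lower, and the median difference was 71.1, where the median over all 11603 genes was -1.56. Of the 12, 9 had no peak in K562 Control and KD, so they entered through NB4 and could only be higher, and neither the count nor the median supports a difference of the list. The 4 with the highest NB4 ranks were CSF3R, the G-CSF receptor (mean percentile 96.0), FUT4 (95.2), the integrin gene ITGB2 (94.5) and ANPEP (92.8). Of 30 other regulator genes, 28 were tested, with 7 higher and 3 lower, and a median of 4.38. Of the 7, HOXA9, FLI1 and BCL11A had no peak in K562, entered through NB4 and could only be higher, so the count is a description. The 4 ranked highest in NB4 were CUX1 (97.7), ETV6 (97.5), ZEB2 (96.3) and BCL11A (96.2), of which ETV6 and BCL11A were higher in NB4 and the other two did not pass. Of 18 other granule and neutrophil genes, 9 were tested, with 4 higher (RNASE2, MMP9, SRGN and CTSC) and 2 lower (SERPINB1 and CFD), and a median of 3.58. RNASE2 and MMP9 had no peak in K562, entered through NB4 and could only be higher, so this count is a description as well. CTSC, which encodes the protease that activates the granule proteases, ranked highest in NB4 at 96.2, followed by CFD (87.2), SRGN (69.9) and PRG2 (59.3). The remaining 9, among them LYZ, BPI and LTF, were listed in 0 of 14 libraries, as ELANE was.

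Genes with the most similar pattern were sought by the root mean square (RMS) difference in percentile over the 14 libraries. For CEBPE they were ITGB2 (1.82) and SLFN11 (2.16), for AZU1 ARHGDIB (3.24) and ZNF665 (3.48), and for CEBPA EPDR1 (4.60) and ADGRL2 (4.92). For PRTN3 they were TNFAIP8L2 and SCNM1 (5.95 each), for SPI1 FTH1 (6.36) and DEF6 (8.58), and for GFI1 SH3KBP1 (7.21) and TMEM143 (8.61). MPO was nearest to USP6 (9.03) and CPT1A (10.3), and CEBPB to HES1 (15.5) and TBCEL (18.1). CEBPB therefore had the least similar neighbours of the 8 genes examined in this way.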

How the data were processed

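The members and gene lists were chosen with earlier results of these data known. Per the study's methods and the submitters' processing notes, the authors trimmed reads with Trimmomatic 0.39, aligned them to hg38 with HISAT2 2.1.0, split alignments by strand with SAMtools 1.9 and called peaks per library and strand with MACS2 (extension 150 bases, q under 0.01). In the deposited lists the fold ratio over the local background, the score, the -log10 p-value and the -log10 q-value are the authors' MACS2 output, and replicates were not pooled. Whether input served as background was not stated. Without read counts, count tests could not be used.

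Pileup and local mean were solved from fold and p-value, and effective reads from the lowest local mean. In 11 libraries every pileup (100%) was whole within 0.05. In NB4 Control 3 and both HepG2 libraries they were whole at 9.28% to 10.3%, and rescaled reads were assumed. Annotation was GENCODE release 44. Percentiles of -log10 q were compared by exact two-sided permutation tests over libraries, checked on simulated data, with Benjamini-Hochberg adjustment over all genes listed in a compared library. All 10 members were named, each with full values for its most often listed sense region. Sequences were read from hg38. The alternate contig was matched with minimap2 2.31-r1302 and counted as an alternative chosen after seeing the data. Python 3.11.15, numpy 2.4.6, pandas 2.3.3, scipy 1.17.1, numba 0.67.0, matplotlib 3.10.9 and samtools 1.23.1 were used.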

Additional observations from a re-analysis of the deposited data

Results flagged for a closer look

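The mean KD minus Control difference in the rank of the strongest peak had opposite signs in the 2 lines at SPI1 and GFI1. At SPI1 the KD minus Control difference in percentile was 5.59 in NB4 and -3.64 in K562, a difference of 9.23 (exact permutation test within lines, 120 arrangements, p = 0.0833). At GFI1 it was 6.82 in NB4 and -2.65 in K562, a difference of 9.47 (p = 0.05, same exact permutation test). At both genes every KD library lay above the Control mean in NB4 and below it in K562. In NB4, however, SPI1 overlapped between Control and KD (p = 0.5, exact permutation test). Control 2 was lowest there at 62.4, and Control 1 and 3 were at 78.6 and 77.6. SPI1 and GFI1 were 2 of the 3 genes listed both in NB4 and in K562 Control or KD. They were picked for these opposite signs, so their p-values, which are unadjusted, are a description. The share of all genes with opposite signs was not counted. By the strongest fold SPI1 turned round, with -1.43 in NB4 and 0.49 in K562. The GFI1 value in K562 rests on 1 peak, at percentile 5.29 in K562 Control 2. NB4 KD libraries were deeper than NB4 Control by effective reads, and the part of depth in this was not tested.

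Peaks outside chromosomes 1 to 22, X and Y were present for AZU1 in 8 libraries and for PRTN3 in 6, on the alternate contig that repeats both genes. The AZU1 intron peak on the contig had folds of 42.8 to 76.8 in NB4 and of 10.3 and 7.68 in K562 WT.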

How the results depend on the processing

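The 3 genes listed in every NB4 library and no other were 2 with lists of equal length and 3 under the other settings tried. Of the 8 genes higher in NB4 than in K562, 6 to 8 passed under the 11 settings that kept all libraries, and 0 to 6 with any 1 library left out, namely 0 without any K562 library, when the smallest p is 0.025, 4 without any NB4 KD library and 6 without any NB4 Control library. By the highest fold of the gene, SPI1 reversed to -0.90 against K562, GFI1 to -0.59 against HepG2, and SPI1 to 0.49 for KD against Control in K562. The cause was not tested. The 7 genes without overlap between NB4 Control and HepG2 were 5 to 7 under the other settings and 7 to 8 of 9 with any 1 library left out, while the share of all genes tested rose from 60.3% to between 67.2% and 73.1%. With lists of equal length, the gene whose NB4 KD and Control libraries did not overlap dropped out, leaving 0, and 1 of 2 remained in K562. Leaving out any 1 library gave 1 to 2 in NB4 (2 without Control 2, Control 3 or KD 2) and 2 to 3 in K562 (3 without Control 1). The share of all genes tested was then 29.6% to 35.2% in NB4, against 21.9% with all libraries, and 55.1% to 72.0% in K562, against 27.3%. By fold, the NB4 gene was SPI1, lower in KD, and not GFI1. Replicate numbers did not pair the samples: deviations of same-numbered NB4 Control and KD libraries correlated at -0.065, -0.080 and -0.19, and of K562 libraries at -0.062. With the replicate block the counts were 1 in NB4 and 2 in K562, as without it.

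Lists thinned to equal depth gave the same counts in each comparison. A peak list gives neither methylation level nor RNA abundance.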
